A study of Homo sapiens with 6 samples.

Results

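Polycomb repressive complex 2 (PRC2) was followed through 10 genes, its core subunits *EZH1*, *EZH2*, *SUZ12* and *EED* and its accessory subunits *JARID2*, *AEBP2*, *EPOP*, *MTF2*, *PHF1* and *PHF19*. They were found by name in a table of 58735 genes. All 10 were present, and all 10 passed the filter on low counts that left 13768 genes for testing. The cells were OE33, an established line from a human esophageal adenocarcinoma, measured by sequencing of polyadenylated RNA in 6 libraries. The 3 control libraries (Ctrl) came from untreated cells. The 3 libraries labelled ABS came from cells held for 20 min in acidified bile salts, 200 µM at pH 4.0 in medium without supplements, and then returned to complete medium for 6 h. The labels name 3 independent biological replicates per group and no batch. No group was given acid, bile salts or the exposure medium alone, so these parts of the treatment cannot be told apart. The genes were chosen by a rule that uses the ABS and control columns of each library, with those values already known. Their values in this contrast are therefore given as a description, and counts of members past the threshold support nothing.

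PRC2 places methyl groups on lysine 27 of histone H3 (H3K27me3), a mark of silenced genes. The enzyme is EZH2 or its paralog EZH1, which needs EED, the reader of the mark, and SUZ12, the scaffold. Accessory subunits form a pair of alternative complexes. PRC2.1 holds one of the Polycomb-like proteins PHF1, MTF2 or PHF19 and can add EPOP, which links it to Elongin B and C. PRC2.2 holds AEBP2 and JARID2, a protein of the Jumonji family that helps bring PRC2 to chromatin. EZH2 is often abundant in dividing tumour cells.

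Library totals lay between 22145676 and 25235686 counts. Markers matched the label of an epithelial line. The 6 epithelial markers summed to between 20629 and 23355 CPM in the 6 libraries (counts per 1000000 counts of the library, with TMM scaling of library sizes). The 7 fibroblast markers summed to between 2.59 and 4.11 CPM, the 6 immune markers to between 5.58 and 7.24 and the 4 endothelial markers to between 0 and 0.275. The immune marker gene *PTPRC* and the fibroblast genes *COL1A2*, *DCN* and *THY1* were at 0 in every library. Control replicate 3 and ABS replicate 3 resembled each other more than the other libraries of their groups. A chi-square per degree of freedom on raw counts was 6.74 between them, 4.77 between replicates 1 and 2 of either group, and 13.6 to 18.9 for every other pair of libraries. For the 10 genes, and for the other genes where it matters most, log2 differences are therefore also given over replicates 1 and 2 alone and for the third replicate alone, which is 1 library per group.

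In untreated cells the accessory gene *EPOP* had the highest level per length of the 10 genes. On the scale of TPM (counts divided by annotated gene length, scaled to a sum of 1000000 per library), *EPOP* lay at 91.9 ± 4.87 TPM in control libraries (mean ± SD, n = 3). It was followed by *SUZ12* at 76.9 ± 6.27 and *PHF19* at 42.1 ± 5.02. *AEBP2* (29.6 ± 0.809), *EZH2* (28.8 ± 1.91) and *JARID2* (28.0 ± 4.48) came next, and their control libraries overlapped. *EED* (21.9 ± 1.47), *PHF1* (20.5 ± 1.20) and *MTF2* (18.3 ± 0.990) formed the lower end, where each overlapped its neighbour in this order. *EZH1* was last at 3.32 ± 0.715 TPM. The steps from *EPOP* to *SUZ12*, from *SUZ12* to *PHF19*, from *PHF19* to *AEBP2*, from *JARID2* to *EED* and from *MTF2* to *EZH1* were free of overlap between control libraries. Among all tested genes the control level of *EPOP* stood at the 85.8th percentile and that of *EZH1* at the 21.5th. *EZH2* therefore made up 89.7 ± 1.52% of the summed TPM of both methyltransferase genes in control libraries and 89.1 ± 1.79% in ABS libraries (n = 3 each).

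**Figure D1:**
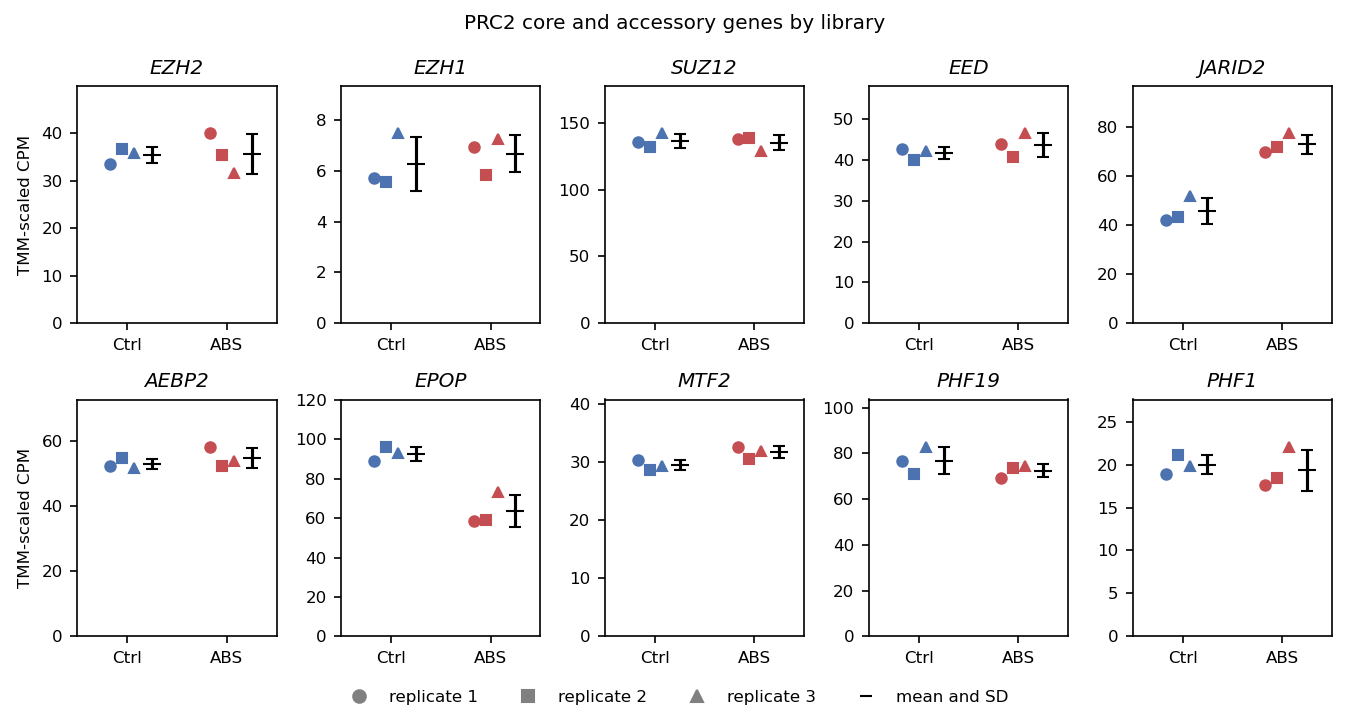
TMM-scaled CPM of each PRC2 gene (vertical axes, from 0) in the 3 control libraries (blue) and the 3 ABS libraries (red), with the replicate shown by the symbol and the mean and SD in black. *JARID2* was higher in every ABS library than in every control library and *EPOP* was lower, while *MTF2* was separated by a small margin and the other 7 genes overlapped.

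The core genes lay at like levels in both groups. *EZH2*, the main methyltransferase, was at 33.5, 36.8 and 35.9 CPM in control libraries 1 to 3 and at 40.0, 35.5 and 31.6 CPM in ABS libraries 1 to 3. The groups overlapped, with the highest and the lowest value both in ABS, and the log2 fold change of ABS over control was 0.01 ± 0.10 (standard error, SE). *SUZ12*, the scaffold, was at 136, 132 and 142 CPM in control and at 138, 139 and 129 CPM in ABS libraries, a log2 fold change of −0.01 ± 0.07. *EED*, the reader of H3K27me3, was at 42.7, 40.0 and 42.3 CPM against 43.9, 40.7 and 46.6 CPM, a log2 fold change of 0.07 ± 0.09. *EZH1*, the less abundant paralog, was at 5.74, 5.55 and 7.49 CPM against 6.94, 5.86 and 7.26 CPM, and both replicate 3 libraries were the highest of their group. Its log2 fold change of 0.09 ± 0.18 had the widest error of the 10 genes. Over replicates 1 and 2 the log2 differences were 0.10 for *EZH2*, 0.05 for *SUZ12*, 0.03 for *EED* and 0.17 for *EZH1*. In replicate 3 they were −0.18, −0.14, 0.14 and −0.04, so that 3 of the 4 core genes had the opposite sign there. For *EZH2* replicates 1 and 2 also differed in sign, at 0.26 and −0.05. The summed level of the 4 core genes was 131 ± 9.63 TPM in control and 133 ± 3.35 TPM in ABS libraries (n = 3 each).

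Among the accessory genes, *JARID2* and *EPOP* moved in opposite directions, and they were the 2 of 10 genes with an edgeR adjusted p under 0.05. Of all tested genes 60 passed, which is 0.436%, with 0.37% higher (here 1 of 10 genes) and 0.0654% lower (here 1 of 10). Both genes also passed with a term for the replicate 3 libraries, as did 3.38% of all tested genes, and in replicates 1 and 2 alone, as did 13.2%. *JARID2* (chromosome 6, 15246296 to 15522040, plus strand, up to 18 exons) lay at 41.9, 43.2 and 51.7 CPM in control libraries 1 to 3 and at 69.8, 71.8 and 77.4 CPM in ABS libraries 1 to 3. Every ABS library was above every control library, and replicate 3 was the highest of each group. It rose 1.60-fold, a log2 fold change of 0.68 ± 0.09 (SE), with an edgeR adjusted p of 0.00801. The difference was 0.73 over replicates 1 and 2 and 0.58 in replicate 3. Its call ended when control replicate 1 (adjusted p 0.0713), control replicate 2 (0.0989) or ABS replicate 1 (0.0543) was left out, at log2 fold changes of 0.62 to 0.71.

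*EPOP* (chromosome 17, 38671703 to 38675421, minus strand, 1 exon) lay at 89.1, 96.1 and 92.9 CPM in control libraries and at 58.7, 59.2 and 73.1 CPM in ABS libraries. All ABS libraries were below all control libraries, and ABS replicate 3 was nearest to the controls. It fell by 0.54 ± 0.09 (SE) on the log2 scale, which is 1.46-fold, with an edgeR adjusted p of 0.0293. The log2 difference was −0.65 over replicates 1 and 2 and −0.35 in replicate 3, and whether these differ was not tested. The call ended when control replicate 1 (edgeR adjusted p 0.113) or control replicate 2 (0.236) was left out, when ABS replicate 1 (0.247) or ABS replicate 2 (0.175) was, and with library size alone as the scaling (0.0737). In bulk RNA, a change in all cells and a change in some of them cannot be told apart.

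The other 4 accessory genes differed little. *MTF2*, a Polycomb-like protein that binds unmethylated CpG-rich DNA, was at 30.3, 28.6 and 29.4 CPM in control and at 32.6, 30.6 and 31.8 CPM in ABS libraries. Its ABS libraries were all above the controls by a narrow margin, at a log2 fold change of 0.11 ± 0.09, and it did not pass (edgeR adjusted p 0.772). With *JARID2* and *EPOP* this made 3 of 10 genes whose groups did not overlap, beside 14.5% of all tested genes (2 above, beside 7.57%, and 1 below, beside 6.95%). *PHF19* (76.5, 70.9 and 82.8 CPM against 69.2, 73.5 and 74.5 CPM) and *PHF1* (19.0, 21.2 and 19.9 CPM against 17.6, 18.4 and 22.1 CPM) are its paralogs. Their groups overlapped, with log2 fold changes of −0.08 ± 0.08 and −0.05 ± 0.12. *AEBP2*, the partner of *JARID2* in PRC2.2, was at 52.2, 54.6 and 51.7 CPM against 58.0, 52.2 and 53.6 CPM and had a log2 fold change of 0.05 ± 0.08. *MTF2* differed by 0.10 over replicates 1 and 2 and by 0.12 in replicate 3, *PHF19* by −0.05 and −0.15, and *AEBP2* by 0.04 and 0.05. *PHF1* changed sign, at −0.15 and 0.15. Over the 10 genes the median log2 fold change was 0.03, with 6 positive and 4 negative, and over all tested genes it was −0.004.

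The balance among the 6 accessory genes differed between the groups. *EPOP* made up 39.5%, 41.3% and 38.9% of their summed TPM in control libraries and 27.7%, 27.9% and 31.1% in ABS libraries. *JARID2* made up 11.5%, 11.5% and 13.4% in control and 20.4%, 20.9% and 20.3% in ABS libraries. The groups did not overlap in either share. *EPOP* stood at 3.31 ± 0.362 times the TPM of *JARID2* in control libraries and at 1.41 ± 0.105 times in ABS libraries (n = 3 each). The 4 PRC2.1 genes together made up 75.0 ± 0.557% in control and 65.3 ± 1.35% in ABS libraries. This is a share of RNA and not of complexes, as EPOP joins a complex that already holds a Polycomb-like protein. The difference follows from the values that chose the genes and was not tested. The summed level of the accessory genes was 230 ± 15.5 TPM in control and 220 ± 19.2 TPM in ABS libraries, within their spread. Without division by length the PRC2.1 share was 69.0 ± 0.521% and 59.4 ± 1.19%.

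**Figure D2:**
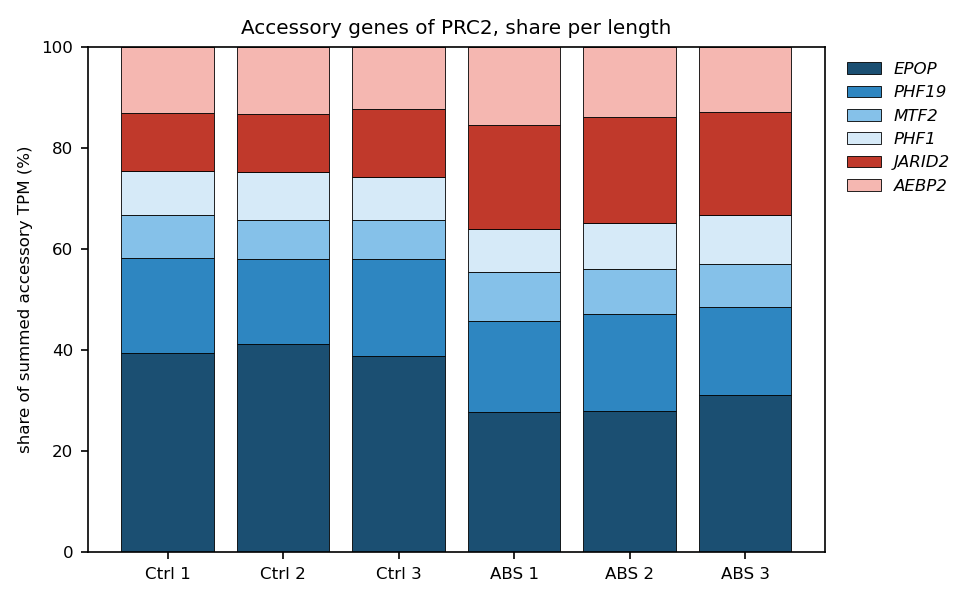
Stacked bars give each accessory gene's share of the summed TPM of the 6 accessory genes (vertical axis, percent) in each library, with PRC2.1 genes in blue and PRC2.2 genes in red. The *EPOP* share was between 38.9% and 41.3% in control and between 27.7% and 31.1% in ABS libraries, and the *JARID2* share was between 11.5% and 13.4% and between 20.3% and 20.9%.

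*JARID2* is the member that rose, and RefSeq (GRCh38.p14) lists a pair of start sites for it. Their windows, each of 250 bases before and 50 bases after the start on the plus strand, are shown because they differ in base content and motifs. Capitals mark the palindrome TGACGTCA, the cAMP response element bound by CREB and ATF proteins.
*JARID2* first start, chr6:15245819-15246118: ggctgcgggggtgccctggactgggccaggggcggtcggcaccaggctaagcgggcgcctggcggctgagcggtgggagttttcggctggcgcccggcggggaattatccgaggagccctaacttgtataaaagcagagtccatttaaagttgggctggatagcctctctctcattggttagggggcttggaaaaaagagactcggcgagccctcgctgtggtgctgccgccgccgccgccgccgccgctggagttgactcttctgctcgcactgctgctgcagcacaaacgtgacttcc
*JARID2* second start, chr6:15248605-15248904: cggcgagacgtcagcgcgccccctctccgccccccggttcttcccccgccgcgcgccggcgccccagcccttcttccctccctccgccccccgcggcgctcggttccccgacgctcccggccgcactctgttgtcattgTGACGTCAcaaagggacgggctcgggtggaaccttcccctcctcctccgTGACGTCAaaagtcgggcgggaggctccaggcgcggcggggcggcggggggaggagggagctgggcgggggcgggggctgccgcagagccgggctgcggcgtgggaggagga

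The second window held the palindrome 2 times, at bases 140 to 147 and 189 to 196, and the first held it 0 times. Of 35116 promoter windows of this length, 1.85% held at least 1 copy. The second window had 40 CpG dinucleotides and the first 24, against a median of 14 over all windows. It also held 1 match to the dioxin response core GCGTG, searched on both strands and present in 36.5% of all windows. There was 1 match to an NF-kB site (GGGRNNYYCC or GGRRNNYCCC, where R is A or G, Y is C or T and N is any base), present in 11.3%. Windows were found for 9 of the 10 genes, 12 in all, and among them the cAMP response element was in the second *JARID2* window alone. The NF-kB site was also in the window of *PHF1* and in 1 window of *PHF19*. GCGTG was also in windows of *EZH1*, *EZH2*, *PHF19* and *SUZ12*. E2F sites (TTTCCCGC, TTTCGCGC, TTTGCCGC or TTTGGCGC, on either strand), to which regulators of DNA replication genes bind, were present in 1 window each of *AEBP2*, *EZH1*, *EZH2*, *MTF2*, *PHF19* and *SUZ12* and in 3.31% of all windows. The 12 windows had 16 to 48 CpG dinucleotides each, and the shares over all windows were not matched for CpG content. These are matches of letters. The counts per gene do not show which start site was used.

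Other genes of the Polycomb system were taken from lists by function. The remaining PRC2 genes had 5 tested members, and 0 passed edgeR, DESeq2 or limma-voom, or had an unadjusted p under 0.05. Among them the histone-binding subunits *RBBP4* (log2 fold change −0.06 ± 0.07) and *RBBP7* (−0.05 ± 0.07) had means above 120 CPM in both groups, and *SKIDA1* (0.50 ± 0.69) had 0.306 ± 0.187 CPM in control libraries. *ELOB* and *ELOC*, which encode the Elongin proteins that EPOP binds, had log2 fold changes of −0.13 ± 0.07 and 0.003 ± 0.09. With *ELOA* (−0.03) and the deubiquitinase gene *USP7* (0.06) they made a list of 4 of which 0 passed in these 3 tests or at an unadjusted p under 0.05. The log2 difference of *ELOB* was −0.21 over replicates 1 and 2 and 0.02 in replicate 3. *ELOB* passed in replicates 1 and 2 alone (edgeR adjusted p 0.00503), as did 13.2% of all tested genes.

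PRC1, the sister complex that adds ubiquitin to histone H2A and includes the CBX readers of H3K27me3, had 30 tested genes. The edgeR threshold was passed by 0, that of limma-voom by 0 and that of DESeq2 by 1. Before adjustment 4 genes were lower and 0 higher with p under 0.05, a level reached by 9.75% of all tested genes. The median log2 fold change was −0.07, and 20 of 30 were negative, beside 7023 of 13768 tested genes. *BCORL1*, a corepressor of variant PRC1, was at 60.8, 55.9 and 46.1 CPM in control libraries and at 38.1, 35.1 and 38.5 CPM in ABS libraries. The groups did not overlap, and control replicate 3 was the lowest control, with a log2 difference of −0.26 in replicate 3 and −0.67 over replicates 1 and 2. Its log2 fold change was −0.54 ± 0.11 with an edgeR adjusted p of 0.0534, and it passed with DESeq2 (0.00097), the robust fit (0.0432), and without control replicate 3 (0.00146) or ABS replicate 3 (0.033). *PCGF2*, a core subunit of canonical PRC1, was at 214, 213 and 198 CPM against 154, 159 and 191 CPM. ABS replicate 3 lay close to the controls, with a log2 difference of −0.06 in replicate 3 and −0.45 over replicates 1 and 2. The log2 fold change of −0.31 ± 0.09 did not pass (edgeR adjusted p 0.168), while without ABS replicate 3 it did (−0.41, 0.0146). *PHC2*, a Polyhomeotic subunit, had −0.29 ± 0.09 (0.211) and passed without control replicate 3 (−0.37, 0.0205).

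The PR-DUB complex, in which BAP1 and ASXL proteins remove the ubiquitin that PRC1 adds, had 10 tested genes, of which 1 fell and 0 rose with edgeR. The gene that fell was *OGT*, which encodes the O-GlcNAc transferase that binds this complex through HCFC1. *OGT* was at 69.2, 70.9 and 64.3 CPM in control and at 45.7, 45.6 and 52.5 CPM in ABS libraries, so that all ABS libraries lay below all controls. Its log2 fold change was −0.51 ± 0.09 with an edgeR adjusted p of 0.028. The call ended without control replicate 1 (edgeR adjusted p 0.173) or 2 (0.236), without ABS replicate 1 (0.240) or 2 (0.169), and with library size alone (0.0578). *HCFC1* (0.25 ± 0.09, edgeR adjusted p 0.311) and the demethylase gene *KDM1B* (0.29 ± 0.11, 0.355) had positive values that did not pass. Their log2 differences were 0.36 and 0.42 over replicates 1 and 2 and 0.007 and 0.003 in replicate 3. Both passed in replicates 1 and 2 alone (edgeR adjusted p 1.31e-05 and 0.00355), as did 13.2% of all tested genes. *OGT* differed by −0.62 over replicates 1 and 2 and by −0.29 in replicate 3. *BAP1* itself was at −0.09 ± 0.13. Of the 10 genes 7 were negative, with a median of −0.12.

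Lists for the enzymes that act with or against H3K27me3 had 0 genes past the edgeR, DESeq2 or limma-voom threshold. The demethylase genes *KDM6A* (0.08 ± 0.13) and *KDM6B* (0.14 ± 0.12) and the acetyltransferase genes *CREBBP* (0.16 ± 0.11) and *EP300* (0.09 ± 0.10) were all positive over the 6 libraries, and 0 of 4 had an unadjusted p under 0.05. Over replicates 1 and 2 their log2 differences were 0.26, 0.31, 0.19 and 0.16. In replicate 3 they were −0.30, −0.19, 0.13 and −0.02. *KDM6B* and *CREBBP* passed edgeR in replicates 1 and 2 alone (adjusted p 0.0312 and 0.0359), as did 13.2% of all tested genes. The 5 H3K36 methyltransferase genes, whose mark hinders PRC2, lay between −0.09 (*NSD2*) and 0.07 (*SETD2*), and *NSD3* and *NSD1* were both at −0.05, with 0 at an unadjusted p under 0.05. SWI/SNF, the remodeller that opposes Polycomb, had 20 tested genes with a median of 0.002. Of these 1 was lower at an unadjusted p under 0.05, *BICRA* (−0.34 ± 0.12, edgeR adjusted p 0.337), and *SMARCD3* (0.43 ± 0.23) and *PBRM1* (0.17 ± 0.12) had the next smallest p.

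**Figure D3:**
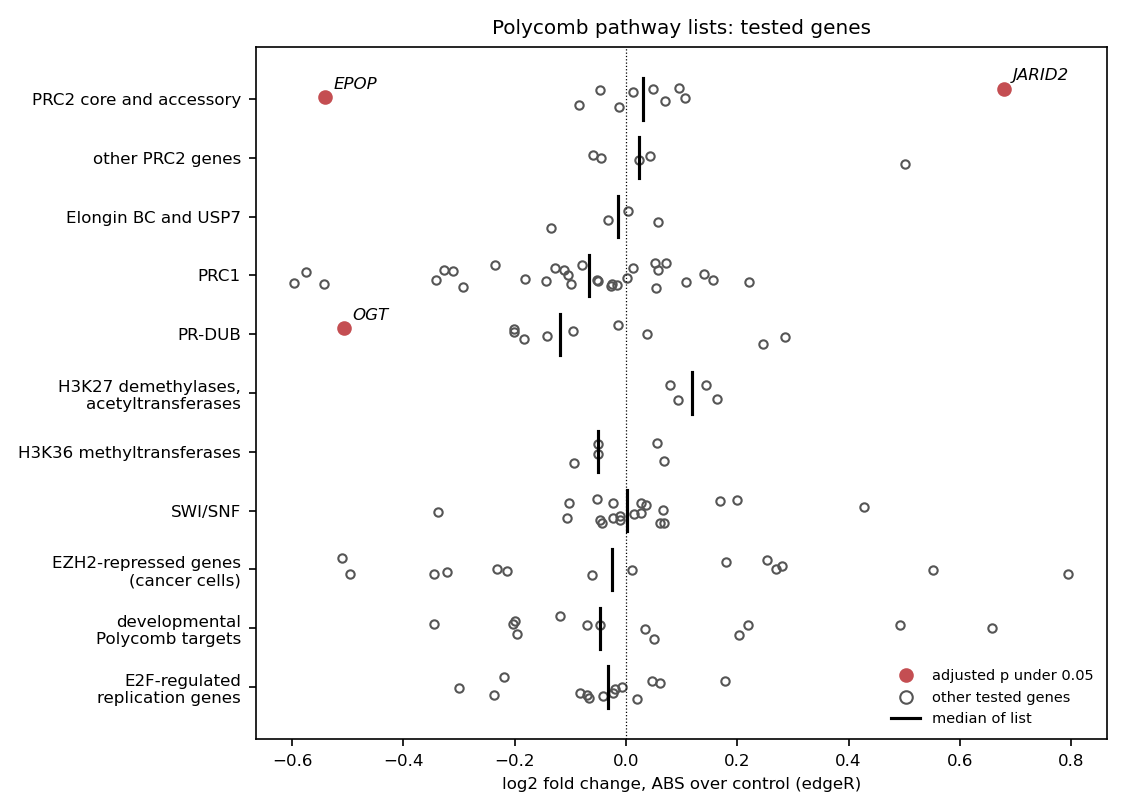
Each circle is the log2 fold change of ABS over control (horizontal axis, edgeR) of 1 tested gene of the list named on the vertical axis, filled red where the adjusted p was under 0.05, and the black bar is the median of the list. The filled circles are *JARID2* (0.68) on the positive side and *EPOP* (−0.54) and *OGT* (−0.51) on the negative side. Some open circles lie farther out on either side.

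Genes that PRC2 is known from other work to silence were read from a pair of lists. H3K27me3 was not measured here, so whether PRC2 silences these genes in OE33 cells is not shown. Of 19 genes reported as repressed by EZH2 in cancer cells 14 were tested. DESeq2 called 3 of them, beside 264 of all 13768 tested genes, and edgeR and limma-voom called 0. Before adjustment, edgeR gave p under 0.05 to 5 higher and 2 lower genes of the list, beside 773 higher and 570 lower of all tested genes. *DAB2IP*, a Ras GTPase-activating protein, was at 84.0, 82.4 and 83.2 CPM in control and at 65.6, 65.5 and 68.6 CPM in ABS libraries, a log2 fold change of −0.32 ± 0.07 (edgeR adjusted p 0.0811). *CDKN2B*, a cell cycle inhibitor, had −0.51 ± 0.12 (0.101). In both genes the groups did not overlap, and leaving out control replicate 3 brought each past the threshold (0.0389 and 0.00286). *DAB2IP* also passed without ABS replicate 3 (0.0398). Without control replicate 3 the list had 4 genes past the threshold, beside 438 of 14111 tested genes. Among the 4 was *CDKN1A*, which was higher (0.46, edgeR adjusted p 0.00833). In replicates 1 and 2 alone 7 genes of the list passed, beside 13.2% of all tested genes. Among the 7, *CDKN1A*, *FOXC1* and *CDH1* were higher, and *CDKN2B*, *DAB2IP* and *GATA2* were lower. Over the 14 tested genes the groups did not overlap in 4 above and 2 below, beside 7.57% and 6.95% of all tested genes. Among those above were *FOXC1* (0.25 ± 0.08), *BCL2L11* (0.27 ± 0.11) and *CDH1* (0.18 ± 0.08), and *CDH1* differed by 0.01 in replicate 3. The median of the list was −0.03, with 7 positive and 7 negative.

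Of 30 developmental genes known as Polycomb targets in stem cells, 14 had 0 counts in every library, where 3 counts, the limit that a count of 0 allows, came to between 0.118 and 0.137 CPM. The 13 tested genes had a median log2 fold change of −0.05, and DESeq2 called 1 of them while edgeR and limma-voom called 0. Before adjustment, edgeR gave p under 0.05 to 2 higher genes and 0 lower ones. The T-box gene *TBX3* had 0.49 ± 0.13 (edgeR adjusted p 0.128) and was the one that passed with DESeq2 (0.0314). *BMP2*, a BMP ligand, had 0.66 ± 0.26 (0.412) and overlapping groups. Without control replicate 3 it had 1.03 and passed (edgeR adjusted p 0.0226). Its log2 difference was 1.21 over replicates 1 and 2 and −0.31, the opposite sign, in replicate 3. *IRX3*, a homeobox gene, had −0.35 ± 0.17 (0.546). E2F-regulated replication genes, which share this regulation with *EZH2* and *EED*, had 14 tested members with a median of −0.03. With edgeR, DESeq2 and limma-voom 0 passed, and 2 were lower at an unadjusted p under 0.05, *E2F1* (−0.22 ± 0.07, edgeR adjusted p 0.262) and *E2F2* (−0.30 ± 0.14, 0.507). *CCNE1*, a cyclin gene, followed at −0.24 ± 0.14.

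*EPOP* lies on chromosome 17 near *PCGF2*, so its surroundings were read as well. Within 250 kb of its start 13 other genes were tested, and 0 of them passed edgeR. *MLLT6*, whose start is 30.1 kb away, had a log2 fold change of −0.16 ± 0.07 (edgeR adjusted p 0.481). *PCGF2*, at 74.4 kb, had −0.31 ± 0.09, and *PIP4K2B*, a lipid kinase gene at 125 kb, had −0.29 ± 0.09 (0.218). In these 3 and in *LINC00672* (−1.24 ± 0.48, 0.384), which was at 1.03 ± 0.0862 CPM in control libraries, the ABS libraries lay below all controls. This makes 4 of 13 genes, beside 6.95% of all tested genes. In replicate 3 the log2 difference was −0.06 for *PCGF2* and −0.04 for *PIP4K2B*, and over replicates 1 and 2 it was −0.45 and −0.42. *PIP4K2B* passed without ABS replicate 3 (edgeR adjusted p 0.0207). The annotated span of *PCGF2* overlaps *CISD3* and AC006449.5 on the opposite strand, and with the strand setting not given their reads cannot be told apart where exons overlap. Also on this side lay *CISD3* (−0.09), *PSMB3* (−0.07) and the antisense gene AC006449.5 (−0.60 ± 0.30, 0.559), and farther off *CWC25* (0.17 ± 0.11), *RPL23* (0.002) and *LASP1* (−0.01). On the other side *SRCIN1* had −0.10 ± 0.22 and AC244153.1 −0.21 ± 0.36. AC006449.6 stood at −0.12 ± 0.22.

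**Figure D4:**
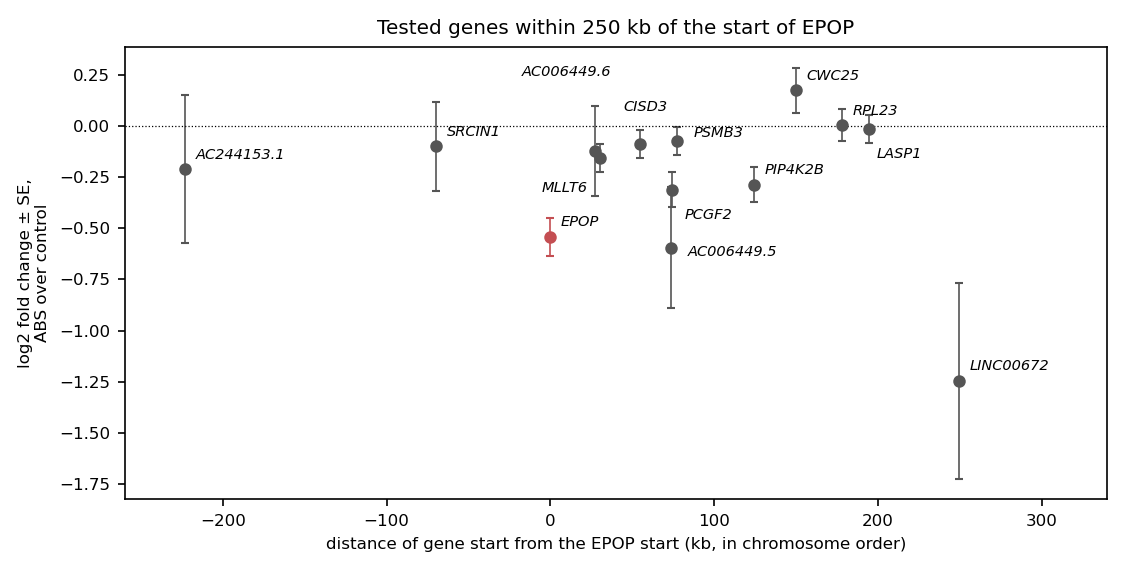
Log2 fold change of ABS over control with its SE (vertical axis) for each tested gene within 250 kb, against the distance of its start from the start of *EPOP* in kb (horizontal axis). *EPOP* at −0.54 is in red, *PCGF2* and *PIP4K2B* lie at −0.31 and −0.29, and *RPL23* and *LASP1* lie at 0.002 and −0.01.

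The genes most like *EPOP* over the 6 libraries, by Pearson r of log2 CPM among 9721 other protein-coding genes with a mean of at least 5 CPM, were *CASKIN2* (r = 0.997), *FBXL19* (0.995), *EEPD1* (0.993), *DLX1* (0.992) and *LFNG* (0.990). *FBXL19* encodes a CpG-binding F-box protein, *DLX1* a homeobox factor and *LFNG* a glycosyltransferase of Notch receptors. Their log2 fold changes were −0.55, −0.32, −0.36, −0.37 and −0.55, and 0 of the 5 passed edgeR, with *LFNG* at an adjusted p of 0.0519 and *CASKIN2* at 0.0659. An r above 0.9 with *EPOP* was reached by 214 genes, and one above 0.9 with *EZH2* by 36. Nearest to *EZH2* were *B3GALNT2* (0.988), *PPM1L* (0.979), *PDGFC* (0.973), *SGSH* (0.973) and *MAOA* (0.968), with log2 fold changes between −0.008 and 0.05. All these values share the same 6 libraries and the same scaling.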

How the data were processed

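The authors deposited a table of raw read counts per gene, whole numbers with 1 column per library, together with gene lengths. Per the submitters' processing notes HISAT2 2.0.5, featureCounts 1.5.0-p3 and GRCh38 were used. The annotation release, strand setting and handling of reads with several positions are not given in the sources used here. All 58735 gene identifiers had identical coordinates in GENCODE release 29.

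Counts were filtered with filterByExpr (minimum count 10, minimum total 15), scaled by TMM and tested with edgeR 4.0.16 in R 4.3.3 (quasi-likelihood F-test, group as the only term, all 6 libraries), with Benjamini-Hochberg adjustment over all tested genes and a threshold of 0.05. SE is the size of the log2 fold change divided by the square root of F. Differences within replicates used log2 of CPM with a prior count of 2. The fit was tested on simulated data, drawn without the likeness of the replicate 3 libraries. Alternatives used DESeq2 1.42.0, limma 3.58.1 (voom), other scalings and filters, and left out each library. SE and SD include the spread between libraries, and the limit set by a count of 0 covers counting error only.

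Members, lists and alternatives were chosen with earlier results of these data known. The genes named are the 10 members, every gene past the threshold and the 3 smallest p-values of each list, the tested genes near *EPOP*, transcripts named after a member, and the 5 most similar genes for *EPOP* and for *EZH2*. Other genes, among them *ELOC*, *BAP1*, *PTPRC* and *SETD2*, were named after their values were seen. 1 gene that the rule names is not reported here. The labels name no pairing by replicate number, and the main fit used none, though the replicate 3 libraries resembled each other.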

Additional observations from a re-analysis of the deposited data

How the results depend on the processing

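*JARID2* kept a positive log2 fold change in all 16 alternatives (0.62 to 0.78) and passed in 13, and *EPOP* kept a negative one in all 16 (−0.65 to −0.49) and passed in 11. The exceptions are named in the report. None of the other 8 members passed in any of the 16. Of these, *EZH2* and *PHF1* changed sign in 3 and 1 of them and *SUZ12* in 3. Members past the threshold numbered 1 with library size alone and 0 to 2 without 1 library. Genes past it numbered 60, and 35 when only library size was scaled for, 264 with DESeq2, 409 when no filter was used, 465 with a term for the replicate 3 libraries, 1813 in replicates 1 and 2 only, and 12 to 438 without 1 library.

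The replicate block gave 350 genes, with 3 in PRC1, 2 in the list of genes repressed by EZH2 and 1 among developmental targets. The correlation of deviations was 0.04, 0.03 and 0.17 for libraries with the same number (replicates 1, 2 and 3). For libraries with different numbers it lay between −0.125 and 0.093. The labels name no pairing, so the numbers were not taken to pair the libraries in the main fit. The likeness of the replicate 3 libraries remains.

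Other counts that moved were those of PRC1 (2 without a filter, 1 with DESeq2, 1 with the robust fit, 3 with the replicate 3 term, 6 in replicates 1 and 2, 0 to 2 without 1 library), PR-DUB (0 with library size alone, 6 in replicates 1 and 2, 0 to 1 without 1 library) and genes repressed by EZH2 (3, 3, 3 and 7 without a filter, with DESeq2, with the replicate 3 term and in replicates 1 and 2, 0 to 4 without 1 library). For developmental targets they were 2, 1, 1 and 2 in the same order, and 0 to 1 without 1 library. In replicates 1 and 2 alone 1 of 4 genes of the Elongin list (*ELOB*) and 2 of 4 H3K27 enzymes passed. So did 4 of 20 SWI/SNF genes and 2 of 14 replication genes. In that setting 13.2% of all tested genes passed. The cause of these moves was not tested. A change of *EZH1*, with 122 to 185 counts per library, is the least well measured of the 10.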

Other observations

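The pattern of *JARID2* over the 6 libraries, compared after its values were seen, was most like those of *RELB* (r = 0.996), an NF-kB subunit gene, *CEBPD* (0.994), a C/EBP factor gene, *EPC1* (0.993), which encodes a protein related to Drosophila Enhancer of Polycomb, *GABPB1* (0.991) and *BCL3* (0.990), an NF-kB cofactor gene. Among 9721 genes 257 had an r above 0.9 with *JARID2*. *RELB* (log2 fold change 0.66) and *CEBPD* (0.79) passed edgeR at adjusted p of 0.0156 and 0.00925, and *EPC1* (0.51, 0.114), *GABPB1* (0.30, 0.225) and *BCL3* (0.53, 0.0551) did not.

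*SUZ12* has a transcribed pseudogene copy on the same chromosome, *SUZ12P1*. Of the 50-base stretches in annotated *SUZ12* transcripts, 6.57% also occurred in those of *SUZ12P1*, and 7.70% in any other gene. *SUZ12P1* was at 4.86 ± 0.269 CPM in control and 4.86 ± 1.63 CPM in ABS libraries (n = 3 each). How reads of the shared stretches were counted is not given in the sources used here. For *JARID2*, *EPOP*, *MTF2*, *PHF1* and *PHF19* 0% of such stretches occurred in another gene, and for *EZH2*, *EZH1*, *AEBP2* and *EED* between 0.29% and 0.742% did. *EZH2P1* had 0 counts in every library, and *JARID2-AS1* had at most 6.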
